A study of Nasonia vitripennis with 79 samples.

Results

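Heads of diploid females and haploid males of the parasitoid wasp Nasonia vitripennis were compared in late generations of a polyploid line. The contrast was chosen by library label and held 10 of the series' 79 libraries. These were 5 of diploid females at generation F14 and 5 of haploid males at F15, all of strain WOM and all taken 1 day after emergence. The line was made by knocking down a sex determination gene, and that history is shared by both groups. Females had 2 chromosome sets and males had 1, which are the usual ploidies of the sexes in this species. Sex, ploidy and generation number changed together between the groups, so their parts in a difference cannot be told apart. The labels do not say whether libraries of a group came from separate cultures or from pooled animals. A p-value here reflects the variation among libraries within the groups fitted together, which were all 8 head groups for the head contrasts. That variation may be technical.

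In wasps, ants and bees, males usually arise from unfertilised eggs and are haploid, while females arise from fertilised eggs and are diploid. In Nasonia the choice is carried by the splicing factor transformer (Tra), whose active form directs female splicing of its own transcript, of doublesex (Dsx) and of fruitless (Fru). Dsx encodes a transcription factor that shapes male and female bodies in insects, and Fru one that shapes male courtship in Drosophila. Insect heads hold the brain, the eyes, the mouthparts and the antennae, where odorant receptors are made in sensory neurons. Head tissue also makes cuticle and carries enzymes, among them the cytochrome P450 monooxygenases, that act on odours, hormones and foreign compounds.

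Total expected counts ran from 16.2 to 45.8 M in the female libraries and from 12.6 to 22.02 M in the male libraries. The 10 most abundant genes took 3.64 to 4.92% of the counts of a female library and 5.46 to 7.89% of those of a male library. In a principal component analysis of the 10 libraries, the first component held 56.2% of the variance and separated the sexes. The second held 13.5% and set 4 libraries apart, D92 and D93 of the females and D102 and D104 of the males. The same 4 libraries had the lowest summed level of odorant receptor genes, as given below. The head label was checked against the opsin Lop1, which stood at a mean of 5351 CPM (counts relative to library size) in female heads and 7068 in male heads. In abdomens of the same sexes, scaled separately, Lop1 stood at 0.0658 and 0.547 CPM. The synaptic gene Syt1 was at 760 and 657 CPM in female and male heads. Summed levels of the marker lists overlapped between the sexes for the head, the fat body and the female germ line. The muscle list did not overlap, with sums of 907 to 1260 CPM in females and 777 to 857 CPM in males, and its part in the results was not tested.

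The threshold for a call was 0.05 on the Benjamini-Hochberg adjusted p of edgeR's quasi-likelihood test, taken over 11579 genes. Of these, 1127 genes (9.73%) were called. Expression was higher in females for 398 genes (3.44%) and lower in females for 729 (6.3%). The differences were larger on the male side, with a median absolute log2 difference of 0.80 among genes higher in females and 1.23 among genes lower in females. A difference of at least 2-fold was met by 166 (1.43%) of the former and by 455 (3.93%) of the latter. The 2 groups of libraries did not overlap for 2323 genes (20.1%), with females above males for 1064 (9.19%) and below them for 1259 (10.9%). Of the 2323 genes, 988 (8.53% of all tested) were also called. Over all genes tested the median log2 difference was 0.06. The test shared its estimate of spread over all 8 head groups. With only the 2 groups fitted, 3282 genes were called, 1386 higher and 1896 lower in females. Without female library D94 the count was 732 genes, 183 higher and 549 lower.

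**Figure D1:**
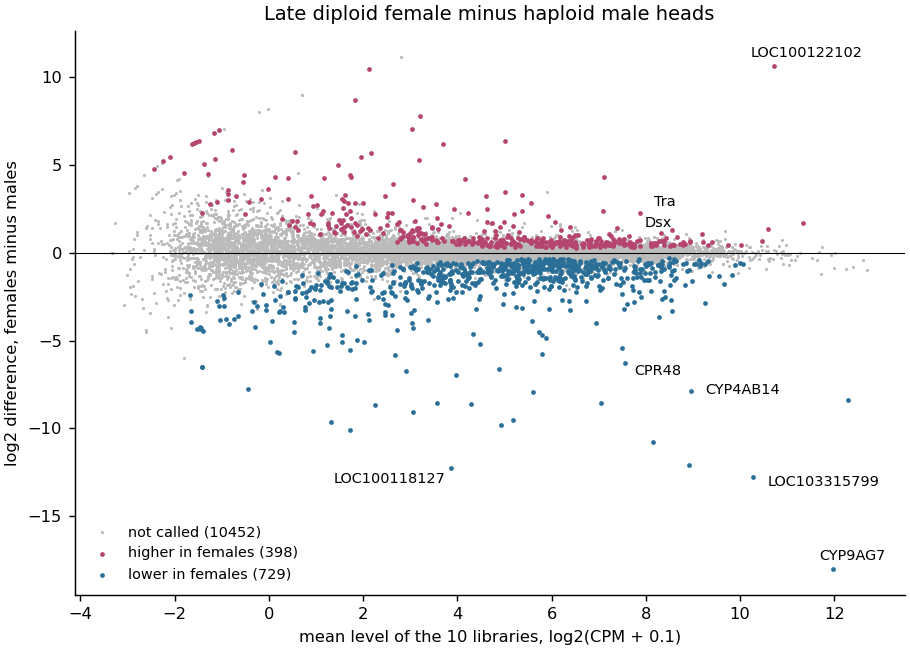
Log2 difference between late diploid female and haploid male heads (vertical axis, females minus males) against the mean level of the 10 libraries (horizontal axis, log2(CPM + 0.1)), 1 point per gene tested. The 398 genes called higher in females are red, the 729 called lower are blue, and the largest differences at high level lie on the male side apart from LOC100122102.

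Among the sex determination genes, Tra was 4.84 times as high in females as in males by mean CPM. Its level was 444, 371, 349, 504 and 273 CPM in female libraries D91 to D95. In male libraries D101 to D105 it was 79.7, 78.4, 81.2, 77.6 and 84.01 CPM. Every female library lay above every male library, and the males lay within a few CPM of each other. The log2 difference was 2.27 ± 0.29 (SE, edgeR adjusted p = 4.8e-07), and the call held without any 1 of the 10 libraries. Dsx was at 270, 200, 251, 233 and 267 CPM in the female libraries and at 168, 151, 176, 153 and 161 CPM in the male libraries. These groups did not overlap, and the log2 difference was 0.60 ± 0.18 (edgeR adjusted p = 0.026). Leaving out 1 library ended the call of Dsx for 8 of the 10 libraries, with adjusted p up to 0.084. Fru was not called in edgeR, with a log2 difference of 0.73 ± 0.25 and an adjusted p of 0.053. It ran from 102.1 to 182 CPM in females and from 64.0 to 116.96 CPM in males, and the groups overlapped. DESeq2 and limma on log2(TPM + 1) each called all 3 genes, Fru included, higher in females, while edgeR with RLE scaling called 2.

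The sex ratio of Dsx depended on the unit. By mean CPM the ratio of females to males was 1.51, and by mean TPM, which divides by transcript length, it was 2.21. For Fru the ratio was 1.66 by CPM and 2.10 by TPM, and for Tra it was 4.84 and 5.42. All 3 genes are known to be spliced differently in the sexes, and a gene's TPM from RSEM depends on the lengths of the transcripts its reads are assigned to. Levels of single transcripts were not used here, so the source of the gap between the units was not tested.

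LOC100122102, a protein-coding gene named only by its identifier, was abundant in females and nearly absent from males. It stood at 3173, 3710, 3527, 2233 and 4290 CPM in female libraries D91 to D95. In male libraries D101 to D105 it stood at 4.17, 1.68, 2.30, 1.59 and 0.664 CPM. The log2 difference was 10.66 ± 0.73 (edgeR adjusted p = 2.2e-13). By TPM, which allows levels of different genes to be compared, it ranked 80 among all genes in female heads, with a mean of 1482 TPM against 0.822 in males. LOC100379126 had a mean of 18.2 CPM in females, from 7.38 to 31.6, and of 0.0801 in males, where 4 of 5 libraries were at 0. LOC107980832 had a mean of 16.2 CPM in females against 0.104 in males, with female library D92 at 42.9 CPM and the other females at 4.69 to 14.7. LOC100121499 had 2.33 to 12.8 CPM in females, and 1 count in all 5 male libraries together. The lncRNA LOC116416192 had 2.77 to 20.6 CPM in females and no count in any male library. Its mean of 8.52 CPM was at least 268-fold higher than the level of 3 counts over the 5 male libraries.

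Among the genes with a symbol on the female side, the carboxylesterase CCE-A4 ran from 3.32 to 8.30 CPM in females and from 0.369 to 1.01 CPM in males (log2 difference 3.09 ± 0.85, edgeR adjusted p = 0.015). NV_30029 ran from 97.1 to 138 CPM in females and from 53.9 to 61.4 CPM in males (1.04 ± 0.28, edgeR adjusted p = 0.012). Cdk4, a kinase that drives cells into DNA replication, had a mean of 6.15 ± 1.76 CPM (SD, n = 5) in females and 2.50 ± 0.245 in males (log2 difference 1.299 ± 0.39, edgeR adjusted p = 0.027). In these genes no female library fell within the range of the males, but the call of Cdk4 was lost in 8 of 10 fits without 1 library. Of the 398 genes higher in females, 24 (6.03%) had a symbol other than an identifier, as did 56 (7.68%) of the 729 lower in females and 5.84% of all genes tested.

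On the male side, the P450 gene CYP9AG7 went from almost no reads to the second highest TPM of all genes. It stood at 9455, 11915, 5296, 7384 and 6186 CPM in male libraries D101 to D105. In females it was at 0 in 4 libraries and at 0.164 CPM in D95, which was 3 counts over the 5 libraries against 781655 over the male ones. Its mean was 11892 TPM in males and 0.048 TPM in females (edgeR adjusted p = 2.1e-09). LOC103315799 was at 5209, 2183, 3478, 1015 and 537 CPM in males D101 to D105 and at most 0.556 CPM in females. The male libraries spread widely for this gene, and each was far above every female library (edgeR adjusted p = 9.5e-07). LOC100123365 was at 539 to 1645 CPM in males and at most 0.396 CPM in females (edgeR adjusted p = 2.0e-10). LOC100119652 had 479 to 790 CPM in males and 0.0495 to 0.613 CPM in females (log2 difference -10.75 ± 0.55, edgeR adjusted p = 1.8e-16). LOC100118127 had no count in any female library and 19.04 to 36.6 CPM in males, a mean at least 1227-fold higher than 3 counts over the 5 female libraries. LOC107980898 had no count in females and 1.03 to 13.3 CPM in males, at least 273-fold higher by mean on the same floor.

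LOC100114997, chosen after its values were seen, had the highest counts of any called gene. It was at 10773, 11335, 7730, 13118 and 7036 CPM in the male libraries D101 to D105. In the female libraries D91 to D95 it was at 54.3, 21.6, 40.98, 27.97 and 6.05 CPM (log2 difference -8.37 ± 1.04, edgeR adjusted p = 3.2e-07). The female libraries were thus not at 0 for this gene, unlike for CYP9AG7, and males were higher in every pairing. LOC100114168, also chosen after its values were seen, was the most abundant called gene of the female side by mean CPM, at 3116 to 4709 CPM in females and 1100 to 1365 CPM in males (log2 difference 1.72 ± 0.40, edgeR adjusted p = 0.0035).

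**Figure D2:**
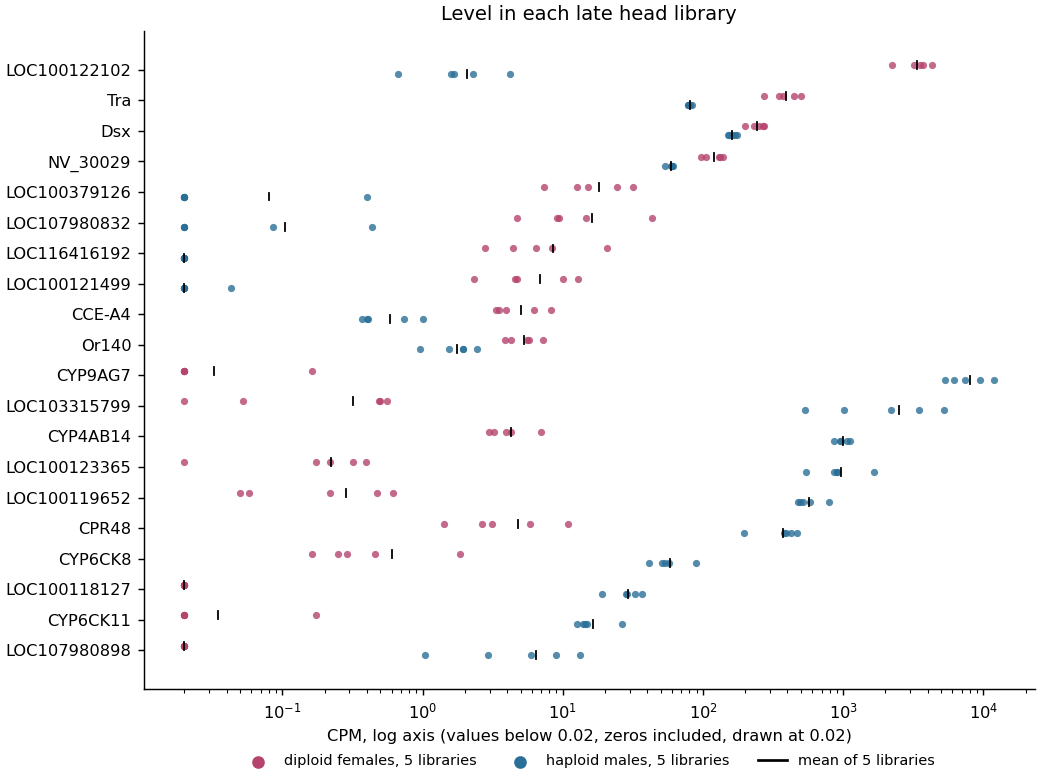
Level of 20 genes in each of the 10 late head libraries (horizontal log axis, CPM), with 5 diploid female libraries in red, 5 haploid male libraries in blue and the mean of 5 as a black line. The groups do not overlap for any gene shown, Dsx lies closest together, and CYP9AG7 runs from 5296 to 11915 CPM in males with 4 female libraries at 0.

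Some of these genes lie beside a gene with the same direction, by gene order on RefSeq assembly Nvit_psr_1.1. The genes checked were 10 on each side, taken by size of the difference with at most 5 LOC identifiers a side. They were therefore not the largest differences of all called genes. Of their 31 tested neighbours, 5 (16.1%) were called in the same direction and 1 in the opposite one. Among tested neighbours of genes that were not called, 5.02% were called with the sign of the gene. LOC100123365 lies next to LOC100123371, which had 38.5 to 79.1 CPM in males and at most 0.158 CPM in females. LOC100118127 overlaps LOC116417427, which had 3.55 to 7.001 CPM in males and no count in females, so reads of these genes may not be told apart. LOC116416776, beside CYP6CK8, had 0.145 to 0.885 CPM in males and none in females. On the female side, LOC100114046 beside LOC100122102 had 24.01 to 57.7 CPM in females and 3.72 to 5.89 CPM in males (log2 difference 3.22 ± 0.51, edgeR adjusted p = 2.3e-05). LOC100679420 beside LOC107980832 had 124 to 385 CPM in females and 7.89 to 147 CPM in males, and the groups overlapped.

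Cytochrome P450 genes form a large family of oxidising enzymes with many recent copies in insects, and reads of near-identical members may be shared between them by RSEM. Of 43 P450 symbols, 40 passed the filter. In edgeR 16 (40%) were lower in females and 0 were higher, against 6.3% and 3.44% of all genes tested. At an unadjusted p under 0.05, 19 were lower and 2 higher, and DESeq2 called 17 lower and 0 higher. Of all 11579 genes tested, 2641 met that unadjusted p in either direction, and DESeq2 called 960 lower and 494 higher. The median log2 difference of the 40 was -0.60, against 0.06 over all genes tested. The count of 16 ranged from 11 to 16 without 1 library, and was 8 without the 4 libraries that stood apart, a setting chosen after seeing the data. With only the 2 groups fitted, 19 were lower and 3 higher. The family's summed level was 1742 to 3466 CPM in females and 10227 to 16847 CPM in males. Without CYP9AG7 the male sums were 4558 to 5932 CPM, still above every female library.

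CYP4AB14 was at 2.95 to 6.99 CPM in females and 865 to 1123 CPM in males (log2 difference -7.84 ± 0.42, edgeR adjusted p = 2.6e-16). Its annotated span lies within that of LOC100122714, which was not called. CYP4AB9 was at 2.03 to 7.96 CPM in females and 81.7 to 147 CPM in males, and CYP6AQ4 at 38.4 to 133 and 500 to 954 CPM. CYP6CK8 was at 0.164 to 1.85 and 41.4 to 89.4 CPM. CYP6CK11 had 3 counts over the female libraries and 12.7 to 26.5 CPM in males. Members of one subfamily thus differed in size: the CYP9AG genes ran from CYP9AG7, nearly absent from females, through CYP9AG6 at means of 3.15 and 17.7 CPM to CYP9AG3 at 133 and 341 CPM. The other called members were CYP6CK3, CYP6AS28P, CYP6AQ9, CYP4AB23, CYP6BD2, CYP4AB8, CYP4AB6 and CYP9AG8P. CYP6AQ8 was not called, with means of 226 CPM in females and 232 CPM in males (edgeR adjusted p = 1.0), but varied widely within them. It was at 378, 1.58, 2.53, 158 and 592 CPM in females D91 to D95 and at 310, 6.39, 525, 6.37 and 310 CPM in males D101 to D105. The low values were those of D92, D93, D102 and D104, the libraries set apart by the second principal component. The source of this split was not tested.

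Other enzymes that act on small molecules followed in smaller numbers. Of 16 glutathione S-transferases, which attach glutathione to reactive compounds, 3 (18.75%) were lower in females in edgeR, against 6.3% of all genes tested. DESeq2 also called 3 lower, and 0 were higher in either or at an unadjusted p under 0.05. The 3 were the theta-class genes GstT1, GstT2 and GstT3. GstT2 was at 26.5 to 73.3 CPM in females and 236 to 458 CPM in males (log2 difference -2.92 ± 0.48, edgeR adjusted p = 3.0e-05). GstT1 had means of 2.96 and 20.7 CPM, and GstT3 of 0.481 and 3.20 CPM. For each of the 3 genes the female and male libraries did not overlap. With only the 2 groups fitted 5 of the 16 were lower, and without the 4 libraries that stood apart 2 were. Over all 16 genes the median log2 difference was -0.08, and 0.06 on the log2(TPM + 1) scale.

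Odorant receptors are the ligand-gated channels of antennal neurons. Of 214 receptor symbols, 152 passed the filter, which most passed at low levels: 54 had a mean of at least 1 CPM in either group. In the tested set 9 (5.92%) were called higher in females and 3 (1.97%) lower, against 3.44% and 6.3% of all genes tested. A log2 difference above 0 was seen in 134 of the 152 (88.2%), against 56.2% of all genes tested. Of the 9 higher receptors, 8 had a mean under 1 CPM in females and were at 0 in at least 1 female library. Between 1 and 9 were called higher without 1 library, and 2 with only the 4 late head groups fitted. The summed level of the family was 533, 42.9, 36.8, 312 and 533 CPM in females D91 to D95. It was 178, 51.7, 247, 57.1 and 184 CPM in males D101 to D105. The groups overlapped, and libraries D92, D93, D102 and D104 lay at or below 57.1 CPM in both sexes while the others lay at or above 178 CPM. Or1, the receptor with the highest counts, followed the same split, at 274, 2.00, 1.21, 134 and 253 CPM in the females and 65.4, 3.06, 101.4, 3.62 and 69.6 CPM in the males. The labels do not say how antennae were treated in dissection, and the source of the split was not tested.

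A few receptors differed between the sexes in all libraries, including those 4. Or296 was lower in females, at 0.939 to 3.02 CPM against 7.44 to 12.6 CPM in males (log2 difference -2.47 ± 0.51, edgeR adjusted p = 7.9e-04). Or93 was at 0.149 to 0.349 CPM in females and 1.99 to 5.18 CPM in males (-3.97 ± 0.65, edgeR adjusted p = 3.1e-05). Or92 had means of 1.38 and 5.57 CPM. Or140 was higher in females, at 3.85 to 7.27 CPM against 0.966 to 2.43 CPM (1.59 ± 0.42, edgeR adjusted p = 0.011). Among 14 tested gustatory and ionotropic receptors only Gr32, a gustatory receptor, was called, with 3 counts over the female libraries and 0.221 to 1.02 CPM in males. Summed levels of the gustatory and ionotropic list did not show the split of the odorant receptors, with 17.7 to 21.9 CPM in females and 20.5 to 25.05 CPM in males.

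**Figure D3:**
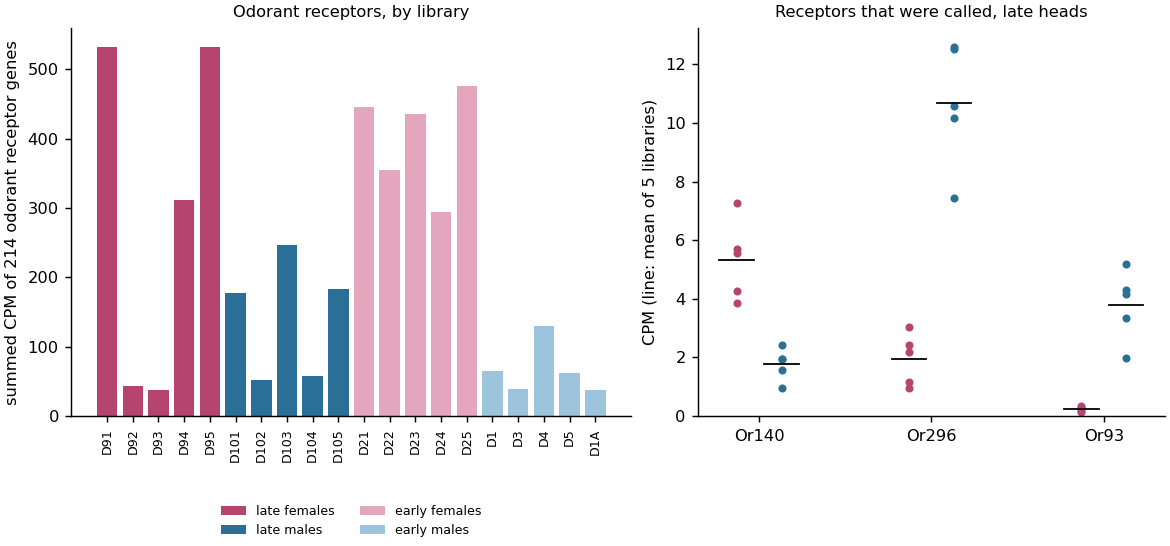
Left, summed CPM of 214 odorant receptor genes in each late and early diploid female and haploid male head library. Right, CPM of Or140, Or296 and Or93 in each late library, females red and males blue, with the mean as a line. D92, D93, D102 and D104 have the lowest sums of their groups, and the values of the 3 receptors on the right do not overlap between the sexes.

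Of 29 tested cuticle protein genes, 3 (10.3%, against 6.3% of all genes tested) were lower in females in edgeR and 0 were higher, with a median log2 difference of -0.50. At an unadjusted p under 0.05, 6 were lower and 1 higher, and DESeq2 called 4 lower and 0 higher. With only the 2 groups fitted 9 were lower and 1 higher, and without the 4 libraries that stood apart 1 was lower. CPR48, of the Rebers and Riddiford family of chitin-binding cuticle proteins, was at 1.42 to 10.96 CPM in females and 196 to 470 CPM in males (log2 difference -6.25 ± 0.87, edgeR adjusted p = 2.3e-06). CPR34 was at 31.9 to 64.1 CPM in females and 133 to 200 CPM in males. Cpap3-e, which carries chitin-binding domains of another kind, had means of 9.12 and 32.04 CPM. Among 37 serine proteases and their inactive homologs, 1 (2.7%) was higher and 4 (10.8%) were lower in females, against 3.44% and 6.3% of all genes tested. With only the 2 groups fitted, 3 were higher and 11 lower, and without the 4 libraries that stood apart 0 and 3. SP7 was higher, at 0.977 to 5.47 CPM against 4 male libraries at 0 and 1 at 0.229 CPM. SP110 was at 42.7 to 64.9 CPM in females and 82.02 to 101.3 CPM in males (log2 difference -0.87 ± 0.14, edgeR adjusted p = 2.5e-05). SP137 had means of 4.11 and 19.1 CPM, SPH42 of 42.4 and 114.4 CPM, and SPH103 of 7.53 and 30.2 CPM.

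Few genes of the mitochondrial respiratory chain were called. Of 62 tested nuclear genes, 3 (4.84%) were lower in females in edgeR and 0 were higher, and this share is below the 6.3% of all genes tested. A log2 difference below 0 was seen in 53 of the 62 (85.5%), against 43.7% of all genes tested, and the median was -0.22. DESeq2 also called 3 lower and 0 higher, and at an unadjusted p under 0.05 there were 6 and 0. On the log2(TPM + 1) scale, on which the median of all genes was 0.18, the median of the list was -0.04. The complex I subunit Ndufb8 was at 93.9 to 134 CPM in females and 152 to 177 CPM in males (log2 difference -0.60 ± 0.16, edgeR adjusted p = 0.014). The complex II subunit SdhB was at 77.0 to 107.6 and 139 to 158 CPM (-0.64 ± 0.18, edgeR adjusted p = 0.017). Cox7a1, a complex IV subunit, was at 0 in 4 female libraries and at 0.628 to 0.973 CPM in males. With only the 2 groups fitted, 27 of the 62 were called lower.

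In the nervous system lists single genes were called. Of 20 tested transmitter receptor, channel and synapse genes, 1 (5%) was called higher and 1 (5%) lower in females. Among all genes tested these shares were 3.44% and 6.3%. A log2 difference above 0 was seen in 17 of the 20, with a median of 0.27. The pH-gated chloride channel pHCl was higher in females, at 345 to 452 CPM against 223 to 315 CPM (log2 difference 0.67 ± 0.20, edgeR adjusted p = 0.030). The nicotinic acetylcholine receptor subunit nAChRa12 was lower, at 16.6 to 22.6 CPM against 23.1 to 31.6 CPM (-0.53 ± 0.17, edgeR adjusted p = 0.036). The subunits nAChRa1, nAChRa2, nAChRa3, nAChRa4, nAChRa5 and nAChRa8 were not called and had higher mean TPM in females. That direction depends on the unit, as the median of all genes was 0.18 on log2(TPM + 1) against 0.06 in edgeR. In edgeR, 2 of the 9 tested head markers, which are these subunits with Lop1, Syt1 and Pdf, were below 0. Lop1 was 1 of them, at -0.40. ACP, a neuropeptide related to adipokinetic hormone and corazonin, was lower in females, at 7.68 to 12.8 CPM against 16.7 to 33.9 CPM (-1.45 ± 0.44, edgeR adjusted p = 0.032). Akhr, the receptor of adipokinetic hormone, was at 21.5 to 29.3 CPM in females and 37.3 to 51.0 CPM in males without passing the test (edgeR adjusted p = 0.11). Pdf, a clock neuropeptide, was not called (adjusted p = 0.31). Calls of pHCl, nAChRa12 and ACP were lost in 8, 6 and 3 of the 10 fits without 1 library.

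Among the tissue marker lists, Srf, a transcription factor of muscle and other cells, was higher in females at 38.98 to 47.5 CPM against 27.4 to 32.6 CPM (log2 difference 0.57 ± 0.15, edgeR adjusted p = 0.013). The tropomyosin gene Tm1 was at 718 to 1015 CPM in females and 631 to 699 CPM in males and was not called (adjusted p = 0.58). The storage protein gene Hex70b of the fat body was higher in females, at means of 4.24 and 1.15 CPM (1.88 ± 0.58, edgeR adjusted p = 0.033). In edgeR 9.73% of all genes tested were called. A further 12 lists were grouped because edgeR called 0 of their 56 tested members, so that count was fixed by the grouping. They were immunity, yellow and royal jelly-like genes, ribosomal proteins, chaperones, hydrocarbon synthesis, DNA damage response, odorant-binding proteins, vision, the clock, transcription factors, female germ line and head markers. At an unadjusted p under 0.05, 6 of the 56 were higher and 6 lower in females, and DESeq2 called 3 higher and 4 lower. Over all 11579 genes the counts in either direction were 2641 at that unadjusted p and 1454 in DESeq2.

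The same contrast in early generations used separate libraries, 5 of diploid females at F2 and 5 of haploid males at F3. It called 2835 genes (24.5%), 1508 higher (13%) and 1327 lower (11.5%) in females. In all, 331 genes were called in the same direction at both times. The shared genes higher in females made up 29.4% of the late and 7.76% of the early list. For genes lower in females 214 were shared, 29.4% of the late and 16.1% of the early list. A further 35 genes were higher late and lower early, and 56 were lower late and higher early. The sign was the same in both for 65.6% of the genes called late, against 53.8% of all genes tested. The difference between the late and early contrasts was called for 1701 genes (14.7%), 711 above 0 (6.14%) and 990 below 0 (8.55%), among them 140 of the 398 genes higher and 335 of the 729 lower in late females. Summed muscle markers were at 2143 to 6983 CPM in early females and 670 to 1153 CPM in early males, a gap many times that of the late heads. The part of this gap in the comparison of late with early was not tested.

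Several genes near 0 in 1 sex late were also near 0 in that sex early. LOC100122102 had means of 3810 CPM in early females and 1.96 CPM in early males. CYP9AG7 had no count in early females and 2109 to 4381 CPM in early males. LOC100123365, LOC100118127, CYP6CK11 and CYP6CK8 were called with the same direction in both. LOC116417762 went the other way, with 0 counts in late females against 128 in late males, and 0 counts in early males against 66 in early females. Tra was also higher in early females, with a log2 difference of 1.20 ± 0.28 (edgeR adjusted p = 0.0018), and the late minus early difference of 1.07 ± 0.39 did not pass the test (adjusted p = 0.060). Dsx differed by 1.18 ± 0.18 early (edgeR adjusted p = 8.6e-06), and the late minus early difference was not called (adjusted p = 0.11).

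Several P450 genes of the late contrast were not lower in early females. CYP4AB9 had a log2 difference of 0.16 early, with males at a mean of 147 CPM, and a called late minus early difference of -4.86 ± 0.66 (edgeR adjusted p = 1.6e-05). CYP4AB14 was lower in females at both times, at means of 87.2 and 726 CPM early, with a late minus early difference of -4.79 ± 0.46 (edgeR adjusted p = 3.6e-08). In the early heads 8 of 40 P450 genes were higher in females and 6 were lower, against 13% and 11.5% of all genes tested. The late minus early difference was below 0 and called for 9 of the 40, and above 0 for 0 of them. Among all genes tested these shares were 8.55% and 6.14%. Most cuticle genes with a called difference went the same way, with 10 of 29 higher and 1 lower in early females, and with the late minus early difference called below 0 for 7 and above 0 for 1. CPR34 was 1.12 ± 0.41 higher in early females and 1.89 ± 0.42 lower in late females on the log2 scale. Odorant receptors were called higher in early females for 61 of 152 genes, against 13% of all genes tested. Their early sums were 293 to 476 CPM in females and 37.4 to 129 CPM in males. Early male libraries D1A and D3, at 37.4 and 39.4 CPM, lay within the 36.8 to 57.1 CPM of late libraries D92, D93, D102 and D104. No early female library lay that low. The part of such a split in the early difference was not tested.

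Genes with opposite calls included LOC100114648, LOC100122334, LOC100124103 and NV_30029. LOC100114648 was at 156 to 2315 CPM in early females and 18.5 to 107.9 CPM in early males, and at 0.345 to 1.85 CPM in late females and 4.91 to 29.1 CPM in late males. Its late minus early difference was -8.97 ± 1.40 (edgeR adjusted p = 7.2e-05). LOC100124103 had means of 51.4 and 13.4 CPM in early females and males, and of 10.4 and 52.8 CPM in late ones. NV_30029 had means of 80.9 and 149 CPM early, and of 121 and 58.7 CPM late.

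**Figure D4:**
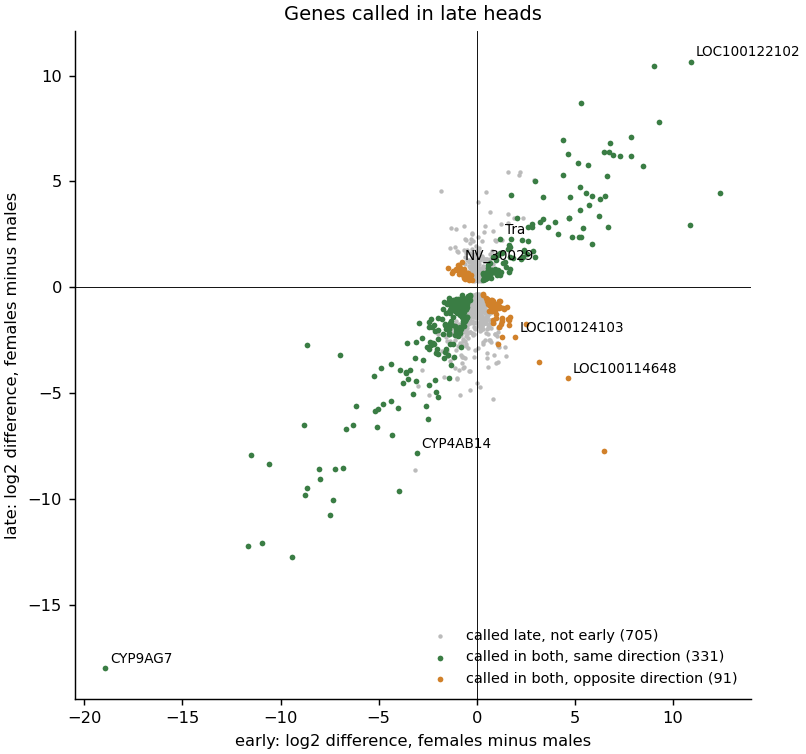
Log2 difference between diploid female and haploid male heads in late generations (vertical axis) against that in early generations (horizontal axis) for the 1127 genes called late. Green points were called in both in the same direction (331 genes), orange points in opposite directions (91 genes) and grey points were not called early (705 genes).

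Late heads of diploid males at F15 allow the female values to be set against males of the same ploidy. That contrast shares the female libraries and is given only beside the main one. It called 1051 genes (9.08%), 358 higher (3.09%) and 693 lower (5.98%) in females. Tra had a log2 difference of 2.39 against diploid males and 2.27 against haploid males, Dsx of 0.76 and 0.60, and Fru of 0.78 and 0.73, with Fru called against diploid males (edgeR adjusted p = 0.039). CYP9AG7 was at 4574 to 8909 CPM in diploid males, and CYP4AB14 at a mean of 1109 CPM. Haploid and diploid male heads of F15, compared directly, differed in 6 genes (0.0518%) in edgeR, with 1 higher (0.00864%) and 5 lower (0.0432%) in diploid males, and in 21 genes in DESeq2. One of the 6 was LOC103317823, at 157, 146, 88.96, 137 and 233 CPM in haploid males D101 to D105. It was at 35.7 to 56.5 CPM in diploid males and 10.99 to 23.1 CPM in diploid females. In early haploid males it was at 23.3 to 43.1 CPM. LOC100119124 was at 48.0 to 127 CPM in haploid males, 20.6 to 46.1 CPM in diploid males and 27.2 to 38.4 CPM in diploid females.

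Abdomens of the same sexes and generations, in separate libraries, differed in 9146 of 11678 genes (78.3%), 4248 higher (36.4%) and 4898 lower (41.9%) in females. Of the genes higher in female heads, 158 of 398 were called higher and 128 lower in female abdomens. Of those lower in female heads, 506 of 729 were called lower and 86 higher in female abdomens. CYP4AB14 was high in males in both tissues, with a mean of 1035 CPM in male abdomens and 0.102 CPM in female ones. CYP9AG7 stood at means of 0.215 CPM in male abdomens and 0.0501 CPM in female ones, and LOC100123365 at 0.266 and 0.149 CPM, in contrast to their levels in male heads. LOC100114997 was at a mean of 41540 CPM in male abdomens and 13.5 CPM in female abdomens. Levels in the 2 tissues were scaled separately, so they are set beside each other without a test.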

How the data were processed

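The study measured poly(A) RNA of heads and abdomens with NEBNext Ultra libraries, per the labels' protocols. The submitters' processing notes list STAR 2.7.11a and RSEM 1.3.1; the build is not given in the sources used here. For 79 libraries the authors deposited RSEM expected counts for 14621 genes, which RSEM may share between similar genes, and a table of TPM. Expected counts were rounded to whole numbers. Strand handling in counting is not given in the sources used here.

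Counts were tested in R 4.3.3 with edgeR 4.0.16 (genes kept by filterByExpr at its thresholds of 10 counts and a total of 15, TMM scaling, robust quasi-likelihood F tests). A one-way model over 8 head groups (40 libraries) gave all head contrasts, and one over 4 late abdomen groups gave the abdomen contrast. Levels are CPM with TMM scaling, and log2 differences are females minus males ± SE. P-values were adjusted by Benjamini-Hochberg over all genes of a contrast. Alternatives were 2-group and 4-group fits, RLE scaling, no filter, DESeq2 1.42.0, limma 3.58.1 on log2(TPM + 1) or log2(TPM + 0.1), and leaving out each library.

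The members and gene lists were chosen with earlier results of these data known. Named genes were the 10 largest non-overlapping called differences in each direction with the higher group's mean at 5 CPM or more and at most 5 LOC identifiers a side. To these came up to 4 members of each list by adjusted p, all sex determination and tissue markers, the largest differences shared with or different from the early contrast, and 5 genes with opposite calls. Genes named outside this rule were chosen after their values were seen: CYP4AB9, CYP6AQ4, CYP6AQ8 and the other P450 members, Or1, Or92, SPH103, the neighbours, LOC100114997, LOC100114168, LOC103317823 and LOC100119124. Symbols and gene order came from the RefSeq annotation of Nvit_psr_1.1, to which all identifiers matched. Of 26 lists, 25 had a tested member, and the venom list had none.

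In counts simulated for the late contrast over 11451 genes, the test called 55% of 100 genes changed 2-fold and 95% of 100 changed 4-fold. It called 0.0711% of unchanged genes. Genes were simulated independently around a mean for each group, without the difference shared by libraries D92, D93, D102 and D104. These shares therefore do not cover variation of that kind. The changed genes were drawn only from genes above a minimum mean fitted count, so the 55% and 95% do not cover genes at low levels. No pair of libraries within the 4 head groups used looked like 1 library entered under different names, with at least 21.7 as chi-square per degree of freedom. At this depth counting error is small for well-expressed genes and larger for genes under 1 CPM. Promoter and protein sequences were not analysed here.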

Additional observations from a re-analysis of the deposited data

Results flagged for a closer look

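In 6 of 138 groups of 5 libraries checked, over 69 named genes, 1 library lay far from the other 4. CYP6CK11 was at 26.5 CPM in male library D102 against 12.7 to 14.8 CPM in the other males. Cdk4 was at 2.07 CPM in D102 against 2.56 to 2.704 CPM, and LOC100679420 at 147 CPM in D102, far above the other males. In female library D92, CYP6CK8 was at 1.85 CPM against 0.164 to 0.46 CPM in the other females, and LOC107980832 at 42.9 CPM against 4.69 to 14.7 CPM. LOC100124103 was at 15.97 CPM in female library D95 against 8.03 to 9.90 CPM. Chance alone is expected to mark about 1 in 20 groups this way.

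In a test in edgeR, 27 of the 69 named genes had a sex difference that changed between the late and the early contrast. Some had been named for a large change or for opposite calls, and others for a large late difference. The count was therefore partly fixed by the choice of genes. Among all genes tested the change was called for 14.7%. On the log2 scale, late minus early, P450 genes changed by -4.79 (CYP4AB14), -4.86 (CYP4AB9), -2.16 (CYP6AQ4), -2.91 (CYP9AG6) and -2.01 (CYP4AB6). The cuticle genes CPR48 and CPR34 changed by -3.75 and -3.00, GstT1 by -2.24 and the receptor Or93 by -3.62. The change was -0.98 for SP110, -1.92 for SPH42, -0.81 for Ndufb8, -0.91 for SdhB and -2.16 for Tm1. It was positive for NV_30029 (1.92), Pdf (1.40), Hex70b (2.96) and Srf (0.67). Among genes named by identifier it was -3.27 for LOC100119652, -8.97 for LOC100114648, -6.71 for LOC100122334, -4.29 for LOC100124103 and -4.28 for LOC100118649. It was -3.13 for LOC103317823, -1.37 for LOC100119124, -5.68 for LOC116417427 and -2.94 for LOC100679420.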

How the results depend on the processing

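The count of 1127 late calls was 3282 with only the 2 groups fitted (1386 higher, 1896 lower), 732 to 1147 without 1 library (181 to 335 higher, 549 to 812 lower), and 384 (65 higher, 319 lower) without the 4 libraries that stood apart. The last, chosen after seeing the data, left 3 libraries a group, and of 47 named genes called in the main test 24 were called and 47 kept their sign. On log2(TPM + 0.1) the lower count was 479. On log2(TPM + 1) the median of all genes was 0.18 against 0.06 in the main test, and 45.2% of calls were higher with the filter and 45.6% without it, against 35.3%. Counts without a filter gave 33.1%. The early contrast called 4567 genes with its 2 groups fitted and 2306 to 2660 without 1 library, the equal-ploidy contrast 2372 and 769 to 963, and the late minus early difference 4160 with 4 groups fitted and 1228 to 1731. These fits of fewer groups, other than the late one, were chosen after seeing the data. The haploid and diploid male contrast went from 6 genes to 128 with 2 groups fitted, 21 in DESeq2, 3 without a filter and 0 to 8 without 1 library. The abdomen count was 8843 to 8966 without 1 library. The causes were not tested. No paired analysis was possible because the labels give each library its own number. The search for a promoter motif was not run. Called genes with a mean under 1 CPM in both groups have fitted differences set by few reads.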
